A study of Mus musculus with 6 samples.

Results

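The cells described here are the fibroblasts (FBs) recovered from 2 organoid cultures, in which FBs from PBS-dosed lungs (normal origin) or from bleomycin-dosed lungs (fibrogenic origin) had grown together with alveolar type 2 epithelial cells (AEC2s). They were chosen by measured values. A barcode was taken as an organoid FB when it held at least 10000 unique molecular identifiers (UMIs), no UMI of the epithelial gene Epcam, at least 500 CPM (counts per 1000000 of its own UMIs) of Col1a1 and Col1a2 together (the main fibrillar collagen), and under 5000 CPM of the surfactant gene Sftpc. The rule found 1761 FBs among 5441 barcodes of the normal culture and 1816 among 8894 of the fibrogenic culture, or 3577 of 14335 organoid barcodes and of 33286 barcodes in all 6 libraries.

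FB donors were adult male mice with an EGFP reporter in the Pdgfra locus, so that GFP follows the promoter of that gene (the strain is spelled PDGFRa-EGF), and received 50 µl of PBS or 2 U/kg of bleomycin once by oropharyngeal aspiration. GFP+ cells were sorted 14 days later from the pooled lungs of 3 mice per group. Both cultures received normal AEC2s from the pooled lungs of 3 SpcCreER, tomato+ donors induced with tamoxifen, and both cell types were cultured for 2 weeks in Matrigel and MTEC+ medium. The sample descriptions give a mixing ratio of 10 to 1 for AEC2s and FBs, whereas the methods of the study name more FBs than AEC2s, so the starting ratio is uncertain. The lung FBs set beside these cells came from GFP+ sorts 14 days after the last of 1 or 3 doses of PBS or bleomycin, from Pdgfra-GFP (1 dose) or PDGFRa-EGFP mice (3 weekly doses, the bleomycin group at 1 U/kg for the earlier doses and 0.5 U/kg for the last), 3 mice per library. They numbered 799 and 790 after a single dose and 4759 and 5256 after repetitive doses, for PBS and bleomycin in each pair. The dose of the single-dose lung library is given as 2 U/kg in 1 field and as 4 U/kg in another.

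Pdgfra+ FBs lie beside the alveolar epithelium and supply AEC2s with growth factors such as Fgf10, with matrix and with lipid. Lipofibroblasts (LipoFBs) hold lipid droplets and carry Tcf21 and Plin2, matrix fibroblasts (MatrixFBs) lie along vessels and airways and carry Col14a1, Ly6a and Cd34, and myofibroblasts (MyoFBs) make contractile proteins and scar matrix after injury. Bleomycin breaks DNA, injures the epithelium and is followed by MyoFB differentiation and collagen deposition in the mouse lung.

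Each condition was 1 library of pooled mice, so no difference below has a replicate check and none was tested, and the treatment of the donors cannot be told apart from any other difference between the 2 cultures. Levels are UMIs summed over the FBs of a library, in CPM of their own UMIs. Fold differences between the organoid libraries carry exact 95% intervals that cover counting error only. Log2 ratios were taken as fibrogenic over normal after adding 1 CPM, and a gene counted as measured when the mean of the 2 libraries reached 10 CPM.

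The organoid FBs were deeply sequenced. Their median was 51504 UMIs per cell in the normal and 67494 in the fibrogenic library, and their summed counts came to 101287047 and 128236662 UMIs. The values that chose them are given here with those of the barcodes just outside each limit. The FB of fewest UMIs had 10155 (normal) and 10002 (fibrogenic) against 9989 and 9993 in the nearest barcode left out, the lowest collagen value was 504 and 508 CPM against 476 and 493, and the highest Sftpc value was 3718 and 4469 against 5037 and 7967. Many more FB-like barcodes failed the UMI limit alone in the fibrogenic library (2199) than in the normal library (385). The Epcam limit alone left out 154 barcodes of the normal and 232 of the fibrogenic library, of which 125 and 189 held 1 Epcam UMI. These FB-like barcodes are part of the epithelial barcodes used below (at least 10000 UMIs and an Epcam UMI). Epithelial levels and shares therefore cover some FB-like barcodes, more of them in the fibrogenic library. The 2 organoid libraries shared 13 barcodes, and no FB, and each shared 2 or 3 FB barcodes with each repetitive lung library.

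Pdgfra, which the rule did not use, was found in the FBs of both origins. After thinning each cell to 10000 UMIs, 48.0% of normal FBs (exact 95% interval 45.6 to 50.4) and 45.3% of fibrogenic FBs (43.0 to 47.6) held a Pdgfra UMI, against 5.62% and 8.22% of the epithelial barcodes of the same libraries (those with an Epcam UMI, with medians of 44331 and 45750 UMIs). Without thinning the shares of FBs were 84.4% and 83.8%. The summed Pdgfra level was 78.8 CPM in normal and 73.5 CPM in fibrogenic FBs, below the 514 and 590 CPM of PBS lung FBs and the 295 and 374 CPM of bleomycin lung FBs. All 12 FB markers, among them Vim, Thy1 and Dcn, were measured and had a median log2 ratio of 0.04. None differed by 2-fold, where 0.237% of all measured genes were past it higher and 0.686% lower.

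RNA of other cell types was low. The 24 AEC2 and epithelial markers summed to 640 CPM in normal and 538 CPM in fibrogenic FBs, against 92637 and 66879 CPM in the epithelial barcodes of the same libraries, and Scgb3a2 was at 0. The rule itself set Epcam to 0 and capped Sftpc, so part of this difference was fixed by the choice of cells. AEC2 genes other than Sftpc, such as Sftpb and Lamp3, stood at a median of 0.510% (normal) and 0.630% (fibrogenic) of their level in the epithelial barcodes. Sums over 8 endothelial markers (13.7 and 12.7 CPM), 12 immune markers (18.7 and 22.7 CPM) and 8 mesothelial markers (14.3 and 16.5 CPM) were of like size in both libraries, with 7 of 8, 9 of 12 and 5 of 8 markers under 1 CPM in each. The 12 pericyte and smooth muscle markers summed to 134 and 157 CPM and the 6 Schwann and neural markers to 59.3 and 71.0 CPM. Their part in the differences below was not tested. Removing an epithelial profile of that size left the counts of genes past 2-fold at 19 higher and 56 lower.

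FBs of the 2 origins were much alike after 2 weeks of culture. Of 8023 measured genes, 19 (0.237%) were at least 2-fold higher in fibrogenic FBs and 55 (0.686%) at least 2-fold lower, and 90% of genes had log2 ratios between -0.38 and 0.32. The median was 0.01. With so few genes past 2-fold, a short list with none past it is no result about that list. After adding 1 CPM, 4 genes were past 4-fold, all of them lower in fibrogenic FBs: Penk, Chodl, Limch1 and Ifitm1. Without that addition Col23a1 (4.36-fold lower, 4.01 to 4.75) and Acta1 (4.08-fold higher, 3.72 to 4.47) were past it too. The mix of cell clusters differed between the libraries, and when the 8 clusters with at least 50 FBs of each origin (3063 of 3577 cells) were kept and weighted equally, a setting chosen after seeing the data, the counts past 2-fold were 8 higher and 6 lower. Some of the 8 higher genes were not among the 19. Values in that setting are given below as those with equal cluster weights. Origin may itself shape the clusters, so these values cannot tell a difference in mix from a difference within cells. The weights were applied to organoid FBs only, and all lung values stayed sums over all lung FBs. Among the 55 lower genes 48 were at least 2 times higher in FBs than in epithelial barcodes, as were 15 of the 19 higher ones. Between bleomycin and PBS lung FBs, also 1 library each, more genes lay past 2-fold. In single-dose lung FBs 428 of 7638 measured genes (5.6%) were at least 2-fold higher and 269 (3.52%) lower, and in repetitive-dose lung FBs 402 of 8761 (4.59%) and 190 (2.17%).

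**Figure D1:**
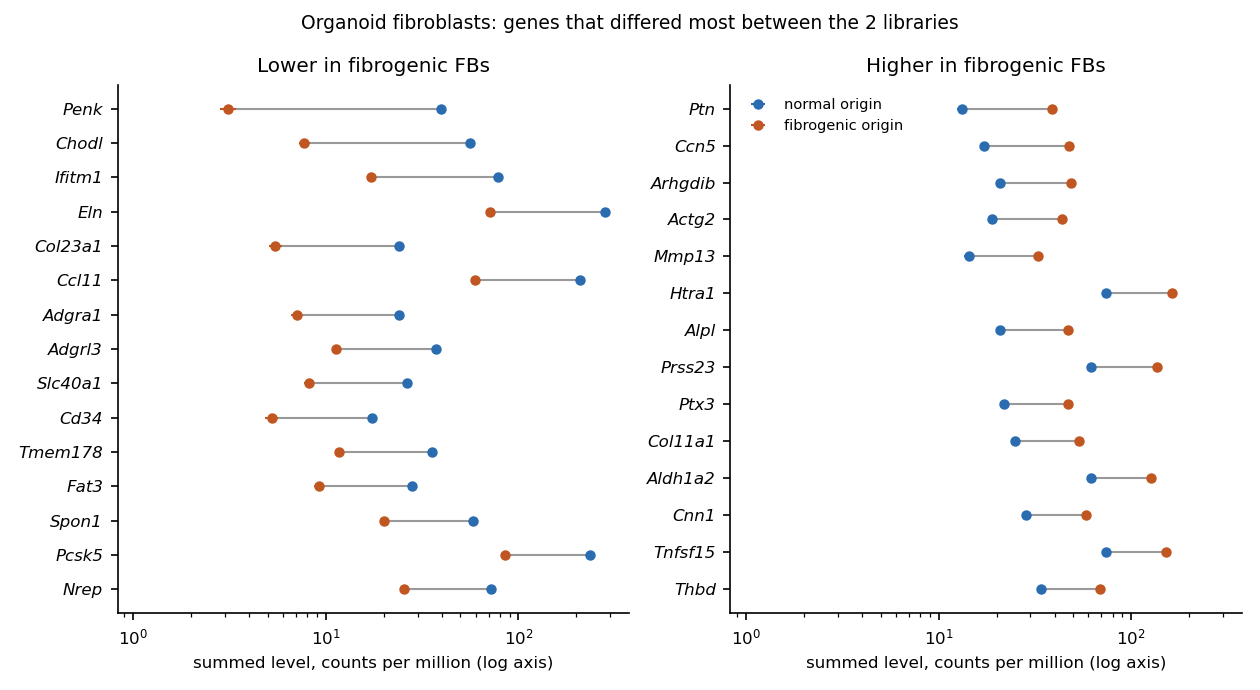
Summed level in CPM (x axis, log scale) of the 15 genes with the lowest (left) and 14 of those with the highest (right) ratio of fibrogenic to normal organoid FBs, leaving out genes that epithelial barcodes held at like levels. Blue points are the normal and orange points the fibrogenic library, 1 library each, and bars are exact 95% Poisson intervals of the counts, mostly shorter than the point; Penk has the widest gap (39.5 against 3.11 CPM).

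The genes that were lower in fibrogenic FBs began with Penk, the precursor of the enkephalin peptides. Penk stood at 39.5 CPM in normal and 3.11 CPM in fibrogenic FBs, a 12.7-fold difference (interval 11.4 to 14.1). At 10000 UMIs per cell, 3.98% of normal and 1.10% of fibrogenic FBs held a Penk UMI, against 0.658% and 0.302% of the epithelial barcodes, and 1 cell gave 9.62% of all its UMIs. Chodl, a membrane protein of the C-type lectin family, was at 56.2 and 7.74 CPM (7.26-fold, 6.79 to 7.78), and 15.8% of normal but 3.03% of fibrogenic FBs held a UMI, against 1.77% and 0.302% of the epithelial barcodes. Ifitm1, an interferon-induced transmembrane protein, was at 78.6 and 17.1 CPM (4.59-fold, 4.38 to 4.81), with 29.6% and 8.92% of cells. In the epithelial barcodes 3.65% and 1.63% held an Ifitm1 UMI. With equal cluster weights the log2 ratios were nearer 0 but past 2-fold: -2.40 in place of -3.30 for Penk, -1.49 in place of -2.71 for Chodl and -1.41 in place of -2.13 for Ifitm1.

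The fibrillar collagens, the main tensile fibres of scar, were mostly within 2-fold between the origins. Col1a1 was at 2916 CPM in normal and 3162 CPM in fibrogenic FBs and Col1a2 at 3099 and 3347 CPM, both used by the rule and both 1.08-fold higher in the fibrogenic library. Col3a1 was at 3196 and 2986 CPM. Of the 8 fibrillar collagens measured, 1 was past 2-fold in each direction, against 0.237% higher and 0.686% lower of all genes: Col11a1, a minor chain that nucleates fibrils, was at 24.9 CPM in normal and 53.4 CPM in fibrogenic FBs (2.14-fold, 2.05 to 2.24), and Col27a1 stood at 15.8 and 6.39 CPM. Both were within 2-fold with equal cluster weights, at log2 ratios of 0.76 and -0.50. The median of the list was a log2 ratio of -0.04, or -0.19 over the 6 genes that the rule did not use, where bleomycin lung FBs had medians of 1.86 (single) and 1.60 (repetitive) with 6 of 7 members past 2-fold higher in each, against 5.6% and 4.59% of all genes. Without Col1a1 and Col1a2, which chose the lung FBs too, the lung medians were 1.93 and 1.38 over 5 genes each. Among 12 basement membrane and other collagens none reached 2-fold, 3 lay above 0 and the median was -0.23, with Col6a3 lowest (66.8 and 37.7 CPM) and Col8a1 highest (112 and 184 CPM).

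Elastin and its partners divided. Eln, which encodes the elastin core of elastic fibres, was at 282 CPM in normal and 70.8 CPM in fibrogenic FBs (3.97-fold, 3.88 to 4.07). At equal depth 38.1% of normal FBs (35.8 to 40.4) and 17.3% of fibrogenic FBs (15.6 to 19.2) held an Eln UMI, against 6.79% of epithelial barcodes in the normal culture and a lower share in the fibrogenic one. The 90th percentile of cells was at 843 and 155 CPM. The microfibril gene Fbn2 was also past 2-fold lower (24.6 and 9.73 CPM), but had a log2 ratio of -0.85 with equal cluster weights, where that of Eln was -1.29. In contrast, fibulins that help to assemble the fibre were higher in fibrogenic FBs without reaching 2-fold: Fbln1 was at 147 and 261 CPM and Fbln5 at 34.3 and 61.0 CPM. The crosslinking enzymes Lox (425 and 543 CPM) and Loxl2 (124 and 172 CPM) were higher as well. Over 20 measured members the median was 0.16, with 2 past 2-fold lower, against 0.686% of all genes, none past 2-fold higher and 12 above 0. The 14 measured collagen folding genes had a median of 0.22 with none past 2-fold, of which Plod2, a collagen lysyl hydroxylase, was highest (184 and 284 CPM).

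Matricellular proteins sit in the matrix and signal to cells. Ccn5 was the member furthest up, at 17.3 CPM in normal and 47.3 CPM in fibrogenic FBs (2.73-fold, 2.59 to 2.89), and Spon1 was furthest down (2.92-fold lower, 2.79 to 3.06). Spon1 was lower in 6 of 8 cell clusters and had a log2 ratio of -0.15 with equal cluster weights, where that of Ccn5 was 0.94. These were the members past 2-fold, 1 in each direction, against 0.237% higher and 0.686% lower of all genes. The median over 16 measured members was 0.03, and 9 were above 0. Spp1, which encodes osteopontin and marks MyoFBs in the lung, was very abundant in both libraries and lower in the fibrogenic one (21838 and 14124 CPM, a log2 ratio of -0.63). Its ratio was -0.15 with equal cluster weights, and it was higher in fibrogenic FBs in 3 of 8 clusters. At equal depth 98.75% of normal and 99.01% of fibrogenic FBs held an Spp1 UMI, as did 77.2% and 86.4% of the epithelial barcodes. Postn was at 52.4 and 79.7 CPM, Tnc at 781 and 650 CPM and Cthrc1 at 85.4 and 88.2 CPM. All 12 genes of the MyoFB list were measured and none differed by 2-fold between the origins, against 0.237% higher and 0.686% lower of all genes. The list median was 0.04. In the single-dose lung it was 3.84 with 12 of 12 past 2-fold higher (5.6% of all genes). In the repetitive lung it was 2.72 with 10 of 12 (4.59%). Genes of that list define MyoFBs in the lung cells of this study, so its lung medians are no independent evidence.

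Contractile genes were the list with the highest median in fibrogenic organoid FBs (0.51 over 15 measured genes, 13 of them above 0), though it was 0.16 with equal cluster weights. Past 2-fold higher were 2 of the 15, against 0.237% of all genes. The smooth muscle actins and their partners led it. Actg2 was at 19.0 and 43.7 CPM (2.30-fold, 2.19 to 2.43) and Cnn1 at 28.3 and 58.4 CPM (2.06-fold, 1.98 to 2.16), though 1 cell held 9.53% of all Actg2 UMIs and 1 cell held 9.86% of those of Cnn1. Both were within 2-fold with equal cluster weights, at log2 ratios of 0.67 and 0.48. Actg2 was higher in 4 and lower in 4 of 8 clusters (-1.69 to 1.97), and Cnn1 was higher in 6. Acta2, the actin that defines MyoFBs, was at 784 and 1392 CPM (1.77-fold, 1.76 to 1.79). Its per-cell values were widely spread. The median FB had 36.5 CPM in the normal and 181 CPM in the fibrogenic library, while the 90th percentile was at 2176 and 3492 CPM. At equal depth 47.4% of normal and 64.9% of fibrogenic FBs held an Acta2 UMI, as did 12.6% and 25.3% of the epithelial barcodes. Tagln stood at 1356 and 1987 CPM and Myl9 at 99.0 and 171 CPM. Acta1, the skeletal actin, had the highest ratio of all measured genes (5.45 and 22.2 CPM), but 1 cell held 35.4% of its UMIs.

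**Figure D2:**
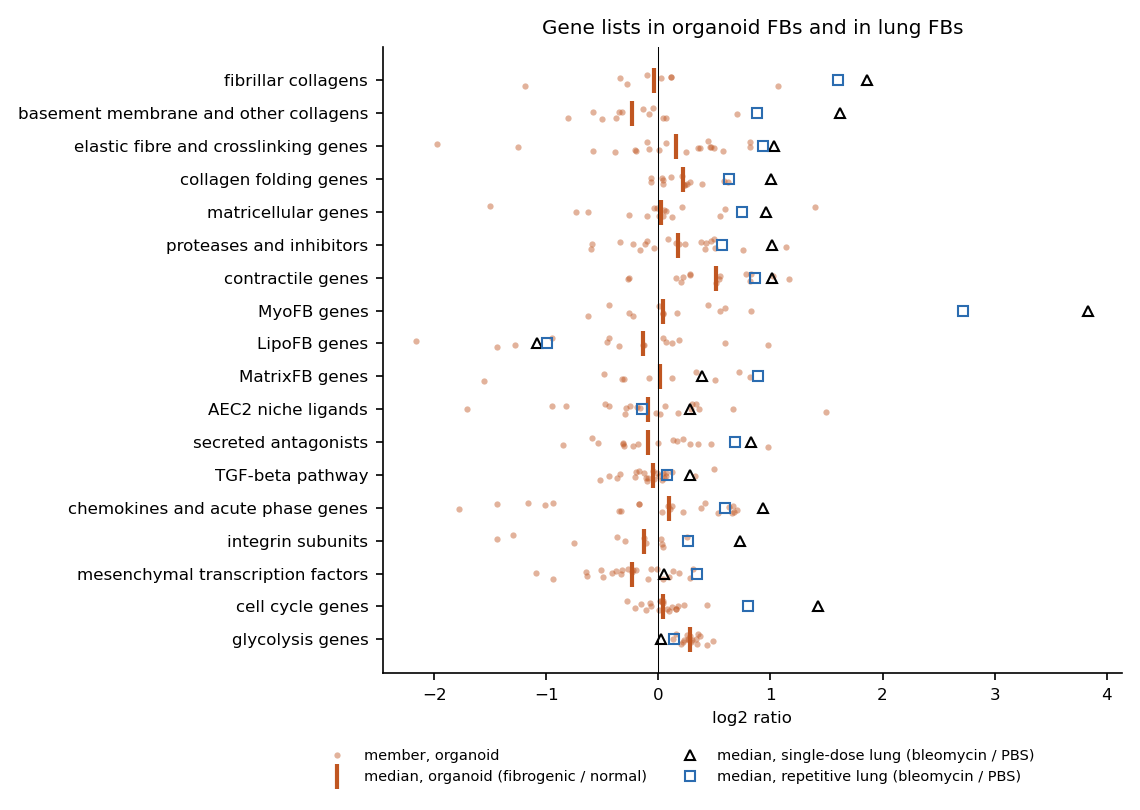
Log2 ratios (x axis) by gene list (y axis). Orange points are the measured members in organoid FBs (fibrogenic over normal) and the orange bar is their median. Open triangles and squares are medians of the same lists in single-dose and repetitive lung FBs (bleomycin over PBS). The MyoFB medians are 0.04 in organoid FBs and 3.84 and 2.72 in lung FBs, and the contractile median is 0.51 in organoid FBs.

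LipoFB genes were split. Of 15 measured, 3 were past 2-fold lower in fibrogenic FBs, against 0.686% of all genes, none was past 2-fold higher and 6 were above 0, with a median of -0.14. The lung medians were -1.08 and -0.99, and genes of the list define LipoFBs in those lung cells. Limch1, an actin-binding protein, was at 66.4 and 14.1 CPM (4.71-fold, 4.47 to 4.96), but epithelial barcodes held it at or above that level (87.2 and 72.3 CPM). Itga8, the integrin alpha 8 subunit, was at 26.1 and 8.99 CPM. Lpl, lipoprotein lipase, which frees fatty acids for uptake, was at 1007 and 415 CPM (2.43-fold, 2.40 to 2.45), and 74.9% of normal and 54.1% of fibrogenic FBs held a UMI, against 14.0% and 12.9% of the epithelial barcodes. The lipid droplet coat gene Plin2 was at 164 and 119 CPM. Tcf21, the transcription factor that marks LipoFBs, was level (20.6 and 21.2 CPM), and Pparg was at 15.8 and 18.1 CPM. Igfbp3, an IGF binding protein, went the other way (39.2 and 78.1 CPM, 1.99-fold, 1.92 to 2.06). Lrat, the enzyme that esterifies retinol for storage, was at 16.2 and 5.72 CPM (2.82-fold, 2.58 to 3.08), and Aldh1a2, which makes retinoic acid, at 61.7 and 127 CPM (2.06-fold, 2.01 to 2.13). With equal cluster weights Itga8 (-0.76), Lpl (-0.35), Lrat (-0.79) and Aldh1a2 (0.59) were within 2-fold.

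Among 10 measured MatrixFB genes 1 was past 2-fold lower, against 0.686% of all genes, and the median was 0.02. That gene was Cd34, a surface sialomucin (17.3 and 5.24 CPM, 3.30-fold, 3.02 to 3.62), with a log2 ratio of -0.76 with equal cluster weights. Col14a1 (42.9 and 76.3 CPM), Ly6a (20.3 and 34.1 CPM) and Serpinf1 (361 and 515 CPM) were higher in fibrogenic FBs without passing it. The adventitial markers Pi16, Dpp4 and Clec3b were under 2 CPM in both libraries.

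Of the ligands through which FBs can act on AEC2s, 20 of 30 listed were measured, 1 was past 2-fold in each direction, against 0.237% higher and 0.686% lower of all genes, and 9 were above 0. Ptn, the heparin-binding growth factor pleiotrophin, was at 13.2 and 38.9 CPM (2.95-fold, 2.78 to 3.14), with 3.98% of normal and 4.90% of fibrogenic FBs holding a UMI, intervals that overlap, against 0.709% and 1.51% of the epithelial barcodes. Ptn was higher in 5 of 8 cell clusters (-1.36 to 2.15 on the log2 scale), and its log2 ratio was 0.28 with equal cluster weights. These values leave out the cluster led by Ptn itself (15 normal and 172 fibrogenic FBs), which had too few normal FBs to be kept. They therefore do not cover the FBs in which Ptn was the leading gene. Bmp5 was at 20.5 and 5.58 CPM (3.68-fold, 3.38 to 4.01) and was higher in the epithelial barcodes (33.6 and 24.3 CPM) than in the FBs. Its log2 ratio was -1.71, or -0.65 with equal cluster weights. Fgf10, the FGFR2 ligand of the alveolar niche, was at 34.3 and 17.3 CPM, just short of the limit (1.98-fold, 1.88 to 2.09), and 21.2% of normal and 11.2% of fibrogenic FBs held a UMI, against 2.13% and 1.75% of the epithelial barcodes. Fgf10 had a log2 ratio of -0.95, or -0.31 with equal cluster weights, and was higher in fibrogenic FBs in 2 of 8 clusters (up to 0.63). Fgf7, which binds the same receptor, was at 114 and 142 CPM. Cxcl12 was at 599 and 953 CPM (1.59-fold, 1.58 to 1.61), Igf1 at 469 and 345 CPM and Wnt5a at 40.3 and 35.9 CPM.

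No measured member of the secreted antagonists (16) or of the TGF-beta pathway (23) was past 2-fold. Igfbp5 was lowest among the antagonists (478 and 265 CPM). The BMP antagonist Grem1 was at 278 and 238 CPM and the WNT antagonist Sfrp1 at 665 and 747 CPM. Igfbp2 lay under the limit for a measured gene, with a mean of the 2 libraries below 10 CPM, and was named after its values were seen: it had 60 UMIs in normal and 1536 UMIs in fibrogenic FBs, and 0.170% and 1.65% of cells held one at equal depth, as did 0.304% and 0.906% of epithelial barcodes. Tgfb1 itself was at 163 and 120 CPM and its receptor Tgfbr2 at 201 and 140 CPM. The list median was -0.05.

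Chemokines and acute phase genes held 4 of the 55 lower genes and none of the 19 higher ones, or 4 of 22 measured members past 2-fold lower against 0.686% of all genes. Of the 4, Hp alone with equal cluster weights stayed past 2-fold (-1.08), while Ccl11 (-0.93), Ccl8 (-0.47) and Saa3 (-0.29) did not. Ccl11, the eosinophil attractant eotaxin, was at 208 and 59.7 CPM (3.48-fold, 3.39 to 3.57), and 31.6% of normal and 14.2% of fibrogenic FBs held a UMI, against 5.11% and 3.08% of the epithelial barcodes. Hp, haptoglobin, was at 225 and 82.2 CPM, with 142 and 166 CPM in the epithelial barcodes. Ccl8 was at 126 and 56.0 CPM (2.25-fold, 2.19 to 2.32) and Saa3, serum amyloid A3, at 488 and 242 CPM (2.02-fold, 1.99 to 2.05). Other members lay on the opposite side: Vcam1 was at 248 and 405 CPM, Csf1 at 83.4 and 134 CPM and Il33 at 101 and 135 CPM. The median over 22 measured members was 0.10.

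Of 23 measured transcription factors of lung mesenchyme 1 was past 2-fold lower, against 0.686% of all genes, and 6 were above 0, with a median of -0.24. That gene was Tbx2 (51.3 and 23.5 CPM, 2.18-fold, 2.08 to 2.28), whose log2 ratio was -0.53 with equal cluster weights, and Tbx4, which is also active in lung mesenchyme, was at 25.9 and 13.0 CPM. Runx1 was at 168 and 119 CPM and Twist1 at 26.2 and 28.7 CPM. Of 11 integrin subunits 2 were past 2-fold lower, against 0.686% of all genes, Itga8 and Itgb8 (36.3 and 14.2 CPM), the latter a subunit of a receptor that can activate latent TGF-beta. Both were within 2-fold with equal cluster weights (-0.76 and -0.56). Among 20 proteases and inhibitors Mmp13, a collagenase, was past 2-fold higher (14.3 and 32.7 CPM, against 0.237% of all genes), with 6.75% of its UMIs in 1 cell. Its log2 ratio was 1.83 with equal cluster weights, and it was higher in 5 and lower in 3 of 8 clusters (-1.90 to 4.05), while the gelatinase gene Mmp2 was at 244 and 162 CPM. The 5 measured small leucine-rich proteoglycans had a median of -0.17 with none past 2-fold.

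Cycling genes were found in the FBs of both cultures. Over 6 cycling markers (Mki67, Top2a, Ube2c, Ccnb1, Cdk1 and Birc5), 28.7% of normal FBs (26.6 to 30.9) and 32.3% of fibrogenic FBs (30.1 to 34.5) held at least 1 UMI at 10000 UMIs per cell, and 12.5% (11.0 to 14.1) and 13.0% (11.5 to 14.6) held at least 3. Without thinning the share with at least 3 was 26.7% and 37.2%, in libraries whose depths differed. No share from cells that should lack these genes was available, so the part of free RNA in these shares was not tested. None of the 19 measured cell cycle genes was past 2-fold, and their median was 0.04, or -0.30 among cells below 100000 UMIs, a limit chosen after seeing the data. Mki67 was at 43.8 and 37.7 CPM and Ccnd1, the D-type cyclin of G1 phase, at 91.5 and 124 CPM.

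Over all genes measured in both, the organoid ratios had almost no correlation with the lung ratios of bleomycin to PBS. Genes past 2-fold are given separately below. Across the 6702 genes measured in both, the organoid and single-dose log2 ratios had a Pearson r of -0.07 and a Spearman rho near 0 (-0.002463), and across 7432 genes the organoid and repetitive ratios had r = -0.11 and rho = -0.03. These are correlations across genes, which are not independent replicates. The 2 lung experiments, set against each other in the same way over 7249 genes, had r = 0.80.

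Genes at least 2-fold higher after bleomycin in both lung experiments were mostly within 2-fold in the organoid FBs. There were 195 such genes measured in all 3 comparisons, with median log2 ratios of 1.87 and 1.57 in the lung. In organoid FBs their median was -0.09, and 181 of them (92.8%) were within 2-fold, 12 (6.15%) past 2-fold lower and 2 (1.03%) past 2-fold higher, where all genes measured in the 3 comparisons had 0.671% lower and 0.0610% higher. The 2 that were higher in all 3 were Prss23, a serine protease (61.6 and 136 CPM in organoid FBs, with 25.1 and 69.0, then 21.5 and 48.7 CPM in PBS and bleomycin lung FBs), and Aldh1a2. With equal cluster weights the organoid median of the 195 genes was 0.05, 2 of the 12 lower genes stayed past 2-fold (Eln and Hp), and neither Prss23 nor Aldh1a2 did (0.59 each). Prss23 was higher in 8 of 8 clusters and Aldh1a2 in 6 of 8. The 46 genes that were lower in both lung experiments had an organoid median of -0.06, and 44 were within 2-fold and 2, Lrat and Itga8, past 2-fold lower. Their median was 0.02 with equal cluster weights, and neither stayed past 2-fold.

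Read from the organoid side, the lower genes were as follows. Of 47 organoid-lower genes measured in the single-dose lung, 16 were past 2-fold higher after bleomycin and 5 (10.6%) past 2-fold lower, against 5.7% and 1.97% of all genes measured in both. Those 16 were 4.19% of the 382 genes higher in that lung. Of 48 in the repetitive lung, 20 (41.7%) were past 2-fold higher and 2 (4.17%) lower, against 4.39% and 1.25% of all genes, and the 20 were 6.13% of 326. Of the organoid-higher genes, 2 of 5 (40%) measured in the single-dose lung and 3 of 8 (37.5%) in the repetitive lung were past 2-fold higher after bleomycin, against the same 5.7% and 4.39%, and none was past 2-fold lower in either. With equal cluster weights, 3 of the 16 (Eln, Hp and Chodl) and 2 of the 20 (Eln and Hp) stayed past 2-fold lower in organoid FBs. These shares were not tested.

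The genes with the widest opposite change, by the rule stated in the methods, were Eln, Tmem178, Nrep, Chl1, Lpl, Ccl8, Slc40a1, Tmeff2, Saa3 and Cyp7b1, which were all lower in fibrogenic organoid FBs and higher in bleomycin lung FBs. Eln was at 806 and 5842 CPM in PBS and bleomycin FBs of the single-dose lung and at 686 and 3195 CPM in the repetitive lung. Chl1, a neural cell adhesion molecule, was at 86.8 and 33.0 CPM in organoid FBs (2.63-fold lower, 2.54 to 2.73), and at 0 and 52.3 CPM and at 0.379 and 72.9 CPM in PBS and bleomycin lung FBs. Lpl was at 92.7 and 514 CPM in PBS and bleomycin FBs of the single-dose lung. Saa3 was at 2.65 and 480 CPM and at 9.97 and 292 CPM. Cyp7b1, an oxysterol hydroxylase, was at 151 and 74.7 CPM in organoid FBs and at 10.6 and 59.6, then 53.1 and 338 CPM, in the lung.

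**Figure D3:**
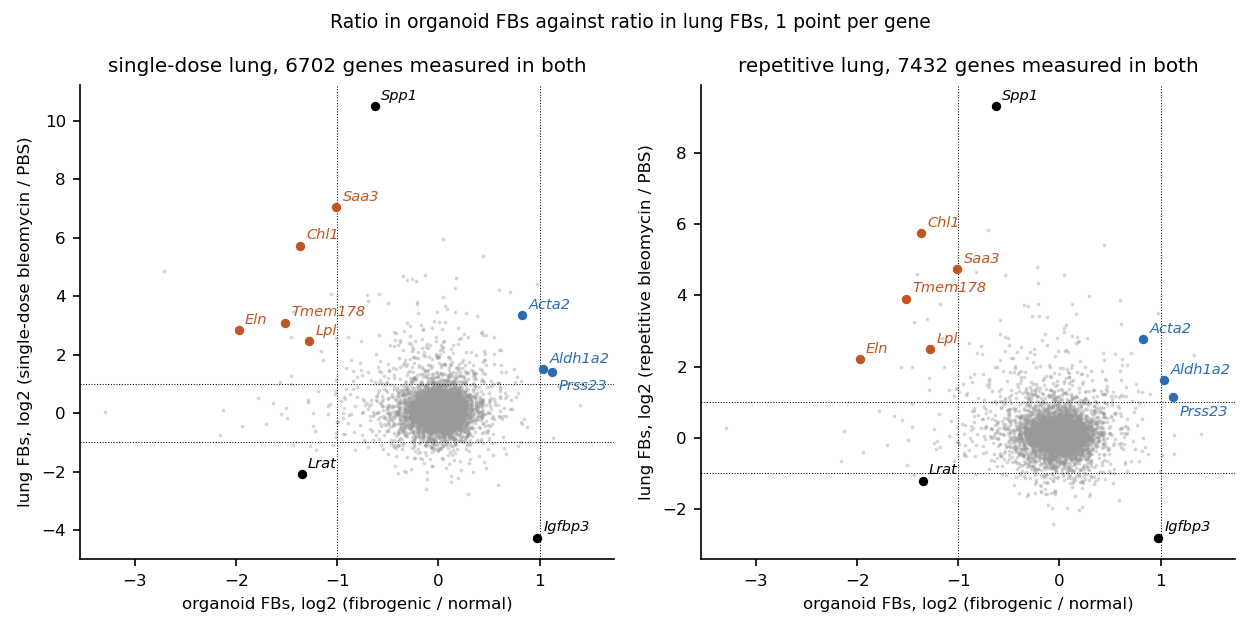
Log2 ratio in organoid FBs (fibrogenic over normal, x axis) against log2 ratio in lung FBs (bleomycin over PBS, y axis), 1 point per gene, for the single-dose (left, 6702 genes) and repetitive (right, 7432 genes) lung. Dotted lines mark 2-fold. Named orange genes are lower in the organoid and higher in the lung comparison (Eln at -1.98 and 2.86 on the left), named blue genes are higher in both, and Igfbp3 is higher in the organoid (0.97) and lower in the lung comparison (-4.25).

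Other genes lay on the same side in all 3 comparisons when cells were summed over each library. By the smallest of the 3 ratios the leading higher genes were Prss23, Aldh1a2, Acta2 (38.0 and 401 CPM in PBS and bleomycin FBs of the single-dose lung), Col14a1, Mmp23 and Myl9. Within the organoid cell clusters Acta2 and Col14a1 were lower in fibrogenic FBs in 5 of 8 and Myl9 in 4 of 8, and the log2 ratio of Col14a1 was 0.24 with equal cluster weights. The leading lower genes were Lrat (226 and 52.5, then 217 and 93.3 CPM in PBS and bleomycin lung FBs), Itga8, Fxyd1 and Slc36a2. Igfbp3 was higher in fibrogenic organoid FBs but lower after bleomycin in the lung (623 and 31.8 CPM, then 505 and 71.4 CPM).

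Levels in both organoid libraries lay apart from the PBS lung for most of these genes. Of the 195 genes higher in both bleomycin lungs, normal organoid FBs had 174 above both PBS libraries. They had 82 above and 68 below both bleomycin libraries. Fibrogenic organoid FBs had 168 above both PBS and 78 above both bleomycin libraries. Of the 46 genes lower in both bleomycin lungs, 43 were below both PBS libraries in normal organoid FBs and 43 in fibrogenic ones. In normal organoid FBs 31 were also below both bleomycin libraries. The share of all measured genes in these positions was not computed. Both sets were chosen by PBS level relative to bleomycin, which favours such positions, so these counts say nothing particular about the sets. Spp1 was at 1.77 and 1.15 CPM in PBS lung FBs and 4029 and 1381 CPM in bleomycin lung FBs, and at 21838 and 14124 CPM in normal and fibrogenic organoid FBs. Inmt, a methyltransferase of LipoFBs, was at 51.8 and 78.6 CPM in organoid FBs, against 8960 and 4598 CPM in PBS and 1621 and 1371 CPM in bleomycin lung FBs. Culture, digestion, depth and preparation differed between the organoid and lung libraries, and their part in these levels cannot be told apart.

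**Figure D4:**
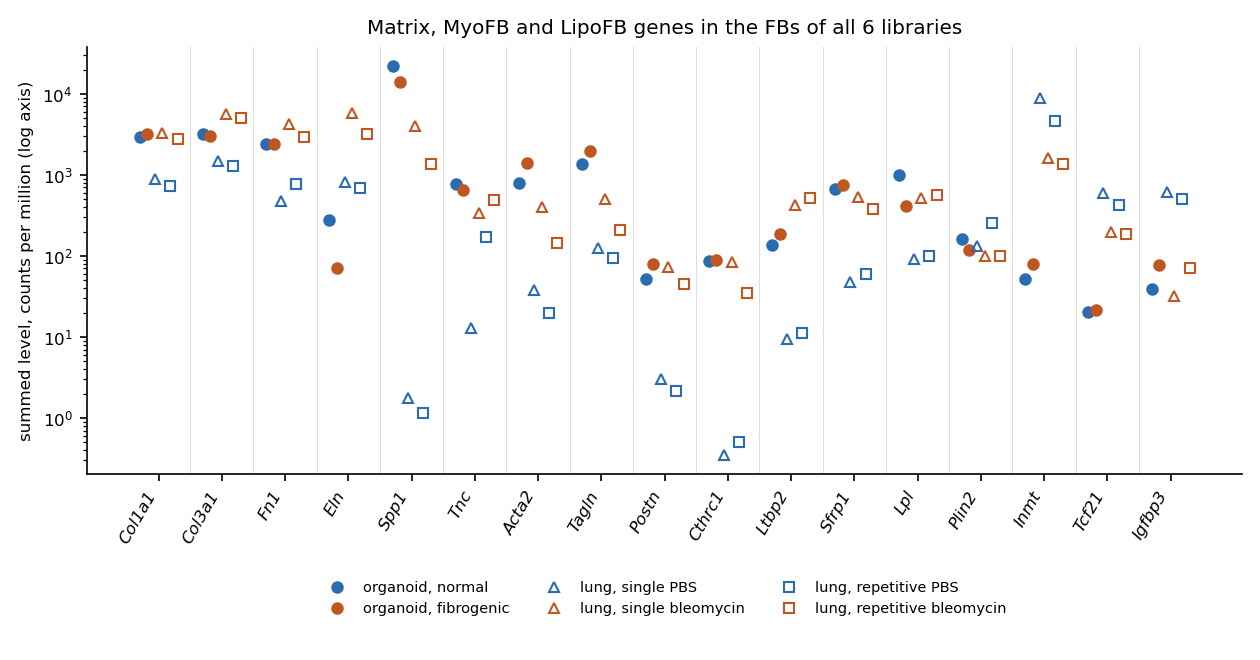
Summed level in CPM (y axis, log scale) of matrix, MyoFB and LipoFB genes (x axis) in the FBs of all 6 libraries, 1 point per library. Filled circles are organoid FBs and open symbols lung FBs, blue for normal or PBS and orange for fibrogenic or bleomycin; Spp1 and Acta2 are highest in the organoid FBs of both origins, and Eln is lowest there.

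The organoid FBs also differed among themselves. Clustering of the 3577 cells gave 11 clusters, and each held cells of both libraries. One was called PMP-like (proliferating mesenchymal progenitor) from the cycling markers above, of which Ube2c and Ccnb1 were among its 10 leading genes. Mki67 and Top2a, which the study uses for PMPs, were not among those 10. Another was led by replication histone genes and also held the cycling markers. They summed to 1335 CPM there and 2497 CPM in the PMP-like cluster, against at most 47.4 CPM in any other cluster. Another held the granule protease genes Gzme and Mcpt8 among its 10 leading genes, and all but the PMP-like cluster were left unnamed. The 2 smallest (97 and 56 cells) had medians of 18308 and 19804 UMIs. No cluster had a listed epithelial, endothelial or immune marker among its 10 leading genes. The cluster led by Sprr2b, Cxcl10 and Ifit1 had the smooth muscle genes Actg2, Myh11 and Cnn1 among its own. It held 11.4% of normal and 23.0% of fibrogenic FBs. Because the clusters rest on the same genes, they give no test of any gene.

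The cells were clustered again without the 164 genes that differed by 2-fold at any level, which gave 12 clusters. Left-out genes such as Thsd4, Spon1 and Ptn still led some of these clusters, so the clusters may not be independent of origin. Whether the differences between origins lay within clusters or in their mix therefore cannot be told from them. The one led by Thsd4, Eepd1 and Crh held 23.8% of normal FBs (21.8 to 25.9) and 5.73% of fibrogenic FBs (4.70 to 6.90). The one led by Ptn, with Hand2 among its 10 leading genes, held 0.852% (0.477 to 1.40) and 9.47% (8.16 to 10.9), and the one led by Cxcl10, Ifit1 and Actg2 held 9.48% (8.15 to 10.9) and 23.6% (21.6 to 25.6). The PMP-like cluster held 5.51% and 5.62%, and the cluster led by replication histone genes held 6.64% and 6.99%. With 1 library per origin a cluster found mainly in 1 library may be a property of that culture, and was not tested.

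Within the 8 clusters that had at least 50 FBs of each origin (3063 cells), some genes kept their direction and others did not. Eln was lower in fibrogenic FBs in 8 of 8 clusters, with log2 ratios between -2.79 and -0.18. Ifitm1, Penk and Chl1 were also lower in 8 of 8, and Lpl was lower in 6 of 8 (-2.10 to 0.32). Prss23, Htra1, a serine protease, Thbd, the thrombin receptor thrombomodulin, Arhgdib, Klf4, Postn and Ltbp2 were higher in 8 of 8. Acta2 was higher in 3 of 8 and lower in 5 of 8 (-0.66 to 1.17), and Tagln the same (-0.68 to 1.14). Ccl11 was lower in 6 of 8 and Saa3 in 6 of 8. When these 8 clusters were weighted equally, 8 genes were past 2-fold higher and 6 past 2-fold lower in place of 19 and 55. The 6 were Penk, Chodl, Ifitm1, Eln, Limch1 and Hp, and Ccl11, Cd34, Lrat, Itga8, Itgb8, Tbx2, Bmp5, Spon1, Lpl, Ccl8, Saa3, Fbn2 and Col27a1 were within 2-fold in that setting. So were the higher genes Ccn5, Actg2, Cnn1, Col11a1, Aldh1a2, Prss23, Ptn, Arhgdib, Htra1, Alpl, Ptx3, Tnfsf15 and Serpinb6b, whereas Mmp13 was not. The 8 higher genes in that setting therefore included some that were not among the 19. The cluster led by Ptn, with 15 normal and 172 fibrogenic FBs, was not among the 8. The log2 ratio of Acta2 was 0.35, that of Lpl -0.35 and that of Eln -1.29.

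**Figure D5:**
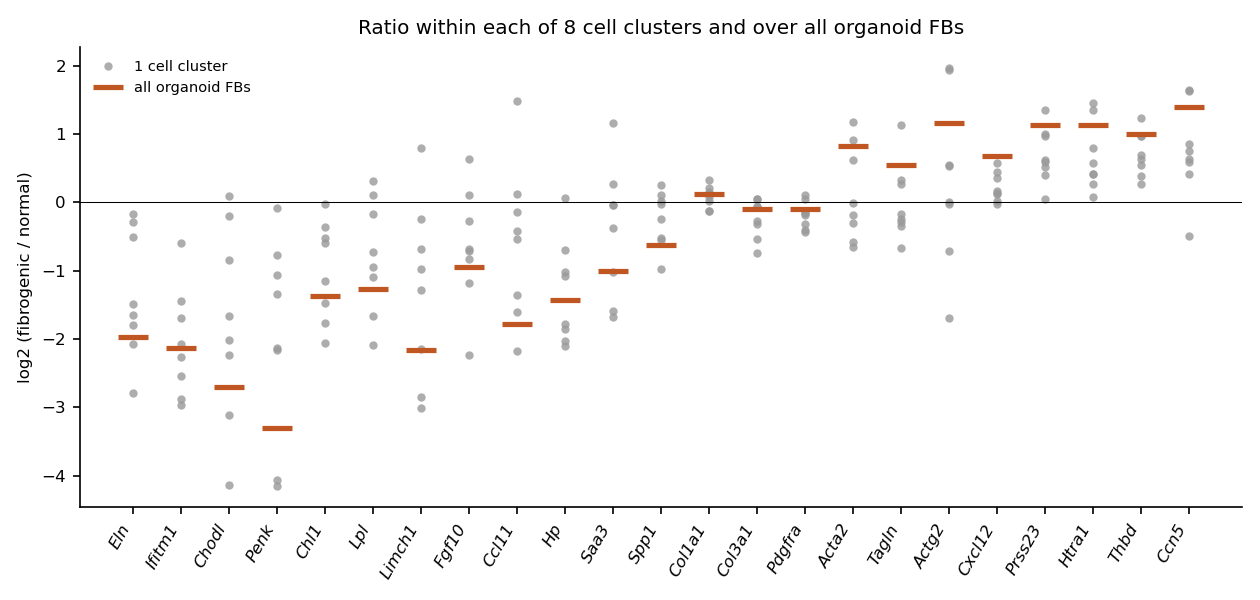
Log2 ratio of fibrogenic over normal organoid FBs (y axis) for 23 genes (x axis). Each grey point is 1 of 8 cell clusters with at least 50 cells of each origin, from a clustering without the genes past 2-fold, and the orange bar is the ratio over all organoid FBs. Eln is below 0 in 8 of 8 clusters, Prss23 and Thbd are above 0 in 8 of 8, and Acta2 lies on both sides.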

How the data were processed

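Counts per gene and cell, as deposited by the authors, were whole numbers of UMIs; the submitters' processing notes name Cell Ranger 3.0.1, Seurat 3 and mm10, the study's methods name GRCm38 with a Gencode annotation, and neither says whether it served all libraries. The organoid and repetitive-dose tables had 32285 gene rows; 20813 of these were matched in the single-dose tables, 323 of them by RefSeq synonyms. Counts were summed over the chosen cells of each library (lung FBs: at least 2000 UMIs, the same collagen and Sftpc limits, no UMI of Epcam, Pecam1 or Ptprc), scaled to CPM and compared as log2(CPM + 1). The members and lists were chosen with earlier results of these data known. With 1 library per condition no test was run. Intervals are exact Poisson or binomial at 95%. Depth was 211680702 UMIs in the normal and 238618743 UMIs in the fibrogenic library. Cells were clustered with scanpy 1.11.5 and igraph 0.11.9 (Leiden, resolution 0.5, 2000 variable genes, 30 components, 15 neighbours, no batch correction). No doublet caller was run: barcodes with an Epcam UMI were left out, and doublets of FBs would remain. Named genes were the highest and lowest of each list with members of high level, the 15 highest and 15 lowest organoid ratios, the 10 with the largest smallest ratio in the same direction in all 3 comparisons (each direction) and the 10 in the opposite direction to both lungs, leaving out mitochondrial, ribosomal, unnamed and epithelial genes, genes under 2 times their level in epithelial barcodes and genes with over 20% of UMIs in 1 cell. Some named items are not reported here. The scripts were tested on simulated counts. Alternatives changed the CPM limit, the pseudocount, the centring, the weighting of cells and the member limits on UMIs, collagen and Sftpc. The Epcam limit was not varied.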

Additional observations from a re-analysis of the deposited data

Results flagged for a closer look

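A set of 10 genes had a lower level in fibrogenic than in normal organoid FBs and a higher level in bleomycin than in PBS lung FBs of both experiments, and the difference between these directions was not tested, since each arm was 1 library. The organoid log2 ratio was -1.98 for Eln, -1.52 for Tmem178, -1.45 for Nrep, -1.37 for Chl1, -1.28 for Lpl, -1.16 for Ccl8, -1.57 for Slc40a1, an iron exporter, -1.01 for Tmeff2, -1.01 for Saa3 and -1.01 for Cyp7b1. The lung ratios of Eln were 2.86 and 2.22 and those of Tmem178 3.10 and 3.91. Eln and Chl1 were lower in fibrogenic FBs in 8 of 8 cell clusters, Tmem178, Nrep, Slc40a1, Tmeff2 and Cyp7b1 in 7 of 8, Lpl and Saa3 in 6 of 8, and Ccl8 in 5 of 8. With the 8 clusters weighted equally, a setting chosen after seeing the data, Eln alone stayed past 2-fold (-1.29), and the others had log2 ratios of -0.34 (Tmem178), -0.57 (Nrep), -0.55 (Chl1), -0.35 (Lpl), -0.47 (Ccl8), -0.34 (Slc40a1), -0.48 (Tmeff2), -0.29 (Saa3) and -0.41 (Cyp7b1). Under 12 other alternatives Cyp7b1 was past 2-fold in 8, Saa3 in 9, Tmeff2 in 10, Ccl8 in 11 and the rest of the set in all 12. Alternatives that changed only the CPM limit left each ratio as it was, so they count as past 2-fold by construction. At the limit of 50 CPM, Tmem178, Nrep, Slc40a1 and Tmeff2 were not measured genes. Genes past 2-fold lower made up 0.686% of all measured genes in the organoid comparison.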

How the results depend on the processing

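The counts of genes at least 2-fold higher and lower in fibrogenic organoid FBs (19 and 55) came to 6 and 15 when a gene needed 50 CPM, 41 and 123 with no filter on low values, and 10 and 36 with a pseudocount of 5 CPM. Without cycling cells (1290 and 1141 FBs left) the lower genes numbered 36 and the higher ones 22. Keeping the 8 cell clusters with at least 50 FBs of each origin (3063 of 3577 cells) and weighting them equally, 2 changes at once chosen after seeing the data, gave 8 higher and 6 lower, and a contractile median of 0.16 in place of 0.51. Cells below 100000 UMIs, also chosen afterwards, gave a cell cycle median of -0.30. At 50 CPM the lung counts were 140 higher and 136 lower (single dose) and 134 and 104 (repetitive). The correlation with the single-dose lung ratio was -0.116 at 50 CPM, -0.0311 with no filter and -0.041 with the mean of per-cell CPM, and that with the repetitive lung was -0.133 at 50 CPM and -0.0817 with no filter. The causes were not tested, except that the CPM limits change how many genes enter. Over all alternatives the AEC2 marker median ran from -0.47 to 0.03, that of niche ligands from -0.22 to 0.11 and that of LipoFB genes from -0.19 to -0.08. Limits on Sftpc, collagen, mitochondrial share and UMIs left 19 to 21 higher and 51 to 57 lower genes. No paired analysis was possible because each condition had 1 library. No library could be left out for the same reason.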

Other observations

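All 17 measured glycolysis genes had log2 ratios above 0 in fibrogenic organoid FBs, with a median of 0.28 where all genes had 0.01, and none passed 2-fold. Gapdh was at 2088 CPM in normal and 2814 CPM in fibrogenic FBs, Eno1 at 564 and 791 CPM and the glucose transporter Slc2a1 at 95.4 and 104 CPM. Among 20 measured genes of fatty acid and cholesterol synthesis 17 were above 0 (median 0.10), with Insig1 highest (70.5 and 87.9 CPM). The fibrogenic library had the higher UMI number per cell, and the part of depth in these values was not tested.

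Interferon genes (median -0.02 over 14 measured) and AP-1 and stress genes (-0.07 over 20) were near level, although the latter had lung medians of -1.33 and -0.84. Of 17 measured p53 and senescence genes none passed 2-fold. Gdf15, a stress cytokine, was at 7.97 and 15.7 CPM, Cdkn1a, the p21 inhibitor of the cell cycle, at 226 and 243 CPM and Cdkn2a at 69.2 and 95.3 CPM. Among 24 measured xenobiotic and antioxidant genes Cyp7b1 alone was past 2-fold, lower in fibrogenic FBs, against 0.686% of all genes. Its log2 ratio was -0.41 with equal cluster weights. The metallothionein Mt1 was at 5335 and 6614 CPM.

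Col1a1 in the epithelial barcodes was at 598 CPM in the normal and 1104 CPM in the fibrogenic culture. A Col1a1 UMI was held by 27.3% and 41.9% of those barcodes at 10000 UMIs per cell. They included 154 (normal) and 232 (fibrogenic) barcodes that met every other limit of the FB rule, whose part in these levels was not tested.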
